A study of Homo sapiens with 10 samples.

Results

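10 genes of the circadian clock were followed in cardiomyocytes made from human embryonic stem cells, after knockdown of the RNA named CLIPPER and in control cells. The members were taken by symbol from the gene table. They are the activators CLOCK and BMAL1, the repressors PER2, PER3, CRY1 and CRY2, the REV-ERB receptor genes NR1D1 and NR1D2, and the PAR bZIP factor genes DBP and TEF. These were 10 of 78932 identifiers in the table, and all 10 were among the 21033 genes with enough counts to be tested. The stem cells were of the established line H1. The knockdown group held 5 libraries of beating cells given a GapmeR against CLIPPER, and the control group 5 libraries of beating cells given a control GapmeR, each at 50 nM on day 9 of differentiation. Both groups share the transfection, and all cells derive from 1 line. A GapmeR is an antisense oligonucleotide that directs RNase H to cut the RNA it pairs with. Total RNA was taken 48 hours later, at 1 time for all libraries, so levels over the day were not measured.

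The circadian clock of mammalian cells is a feedback loop of transcription. CLOCK and BMAL1 form a dimer that binds E-box sequences and switches on the PER, CRY, REV-ERB and PAR bZIP genes. PER and CRY proteins return to the nucleus and inhibit the dimer. The REV-ERB receptors NR1D1 and NR1D2 repress BMAL1 by binding ROR response elements (ROREs) in its promoter, where ROR receptors activate it. DBP and TEF activate genes through D-box sequences. In the heart the clock is known for setting daily rhythms of metabolism, ion channel expression and contractile function.

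The promoters of the genes that changed most, and of their closest relatives, are shown to place these elements. The sequences are RefSeq's, GRCh38.p14, from 250 bases before to 50 after a gene start, written 5′ to 3′ on the strand of the gene. Capitals mark matches, on either strand, to the E-box CACGTG or its variant CACGTT, to the D-box TTATGTAA or its variant TTACGTAA, and to the RORE, which is AANT followed directly by AGGTCA, or its variant, AANT followed by AGGTTA.
BMAL1 (chr11:13277540-13277839, plus strand): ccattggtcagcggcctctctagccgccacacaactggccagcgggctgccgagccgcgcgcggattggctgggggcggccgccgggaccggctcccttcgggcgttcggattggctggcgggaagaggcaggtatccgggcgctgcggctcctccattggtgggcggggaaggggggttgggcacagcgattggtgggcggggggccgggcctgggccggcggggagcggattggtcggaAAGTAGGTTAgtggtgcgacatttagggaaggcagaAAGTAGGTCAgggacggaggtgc
NR1D1 (chr17:40100540-40100839, minus strand): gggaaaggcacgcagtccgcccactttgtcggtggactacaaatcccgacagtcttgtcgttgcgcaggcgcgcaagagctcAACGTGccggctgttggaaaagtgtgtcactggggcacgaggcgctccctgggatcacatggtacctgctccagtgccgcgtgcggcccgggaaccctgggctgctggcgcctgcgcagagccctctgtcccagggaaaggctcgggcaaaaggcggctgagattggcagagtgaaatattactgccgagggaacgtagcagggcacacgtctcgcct
NR1D2 (chr3:23945871-23946170, plus strand): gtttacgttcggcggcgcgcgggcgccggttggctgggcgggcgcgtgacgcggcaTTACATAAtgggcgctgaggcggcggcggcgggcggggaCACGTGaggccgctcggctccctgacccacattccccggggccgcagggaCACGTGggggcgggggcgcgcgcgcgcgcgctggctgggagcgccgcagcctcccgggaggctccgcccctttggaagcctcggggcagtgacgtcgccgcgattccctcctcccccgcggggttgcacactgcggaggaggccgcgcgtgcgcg
DBP (chr19:48637330-48637629, minus strand): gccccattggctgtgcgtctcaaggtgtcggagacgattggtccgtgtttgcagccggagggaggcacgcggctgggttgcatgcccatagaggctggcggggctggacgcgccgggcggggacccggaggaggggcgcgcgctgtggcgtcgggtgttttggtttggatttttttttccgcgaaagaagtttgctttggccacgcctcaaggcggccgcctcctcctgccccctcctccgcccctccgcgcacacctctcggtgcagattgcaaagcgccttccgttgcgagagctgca
TEF (chr22:41381692-41381991, plus strand): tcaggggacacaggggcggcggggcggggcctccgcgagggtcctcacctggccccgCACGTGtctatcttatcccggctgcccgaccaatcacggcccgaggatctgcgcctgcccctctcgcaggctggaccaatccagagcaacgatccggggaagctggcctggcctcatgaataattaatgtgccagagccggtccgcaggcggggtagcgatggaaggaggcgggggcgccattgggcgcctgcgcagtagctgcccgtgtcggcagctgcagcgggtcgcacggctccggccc
The BMAL1 window held a RORE and its variant, which 0.169% and 0.129% of 34943 promoter windows of the same length held. The NR1D1 window held 1 E-box variant, read on the opposite strand (5.35% of windows). The NR1D2 window held 2 E-boxes and a D-box on the opposite strand (7.23% and 0.89% of windows). The TEF window held 1 E-box. None of the 6 sets of letters was found in the DBP window. Of 16 windows of the 10 genes 10 held at least 1 match. The others included a further E-box at TEF, E-box variants at CRY1, CRY2 and CLOCK, a D-box at PER3, and at PER2 an E-box variant and a D-box variant, which 0.126% of windows held. The further windows of BMAL1 and NR1D2, not printed, held no match. The share of all promoter windows with a match to any of the 6 sets was not computed. A match describes the sequence and not binding.

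Library totals were 32879710 to 42073139 counts in the knockdown group and 33516136 to 45052044 counts in the control group. Levels are given in CPM, which scale counts to the size of each library so that libraries can be compared. The lowest count of a clock gene in any library was 50. For 7 of the 10 genes, knockdown replicate 2 was the knockdown library nearest to the controls. The share of all genes for which this holds was not computed, so it is not shown to be particular to clock genes. Values without replicates 1 and 2 are given where they bear on a result. No annotated gene was named CLIPPER, so the targeted RNA was not analysed here. The summed level of 8 cardiomyocyte markers was 10396 to 16900 CPM in knockdown and 26576 to 36899 CPM in control libraries. Of the 7 markers each of other cell types, 0 stromal, 4 endothelial (CDH5, PECAM1, TIE1 and VWF) and 6 pluripotency genes (all but LIN28A) averaged under 1 CPM. The stromal sum was 943 to 1105 CPM in knockdown and 1260 to 1379 CPM in control libraries, the endothelial sum 18.3 to 26.03 CPM and 41.6 to 63.3 CPM, and the pluripotency sum 3.95 to 6.18 CPM and 0.968 to 1.80 CPM. The sum of 5 proliferation markers was 281 to 391.7 CPM in knockdown and 178 to 223 CPM in control libraries. These sums moved with the groups, and their part in the results below was not tested. In bulk RNA, fewer cells of a type and less RNA per cell cannot be told apart.

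The test passed for 9 of the 10 clock genes (edgeR adjusted p under 0.05), of which 4 were higher in the knockdown and 5 lower. Of all genes tested 79.7% passed, 40.1% as higher and 39.6% as lower, so that the count of clock genes is near the background. In the same 9 genes the knockdown and control libraries did not overlap, as in 67.5% of all genes. The median log2 fold change of the 10 was -0.44, against 0.0056 for all genes tested. Among coding genes the median differed with the length of genome covered. It was 0.77 up to 10 kb, -0.48 at 30 to 100 kb and -1.45 over 100 kb, the classes in which the members fell. What distinguished the clock genes from one another was direction and size. The activators fell, NR1D1 and DBP rose several-fold, and their relatives TEF and NR1D2 moved less or the other way.

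**Figure D1:**
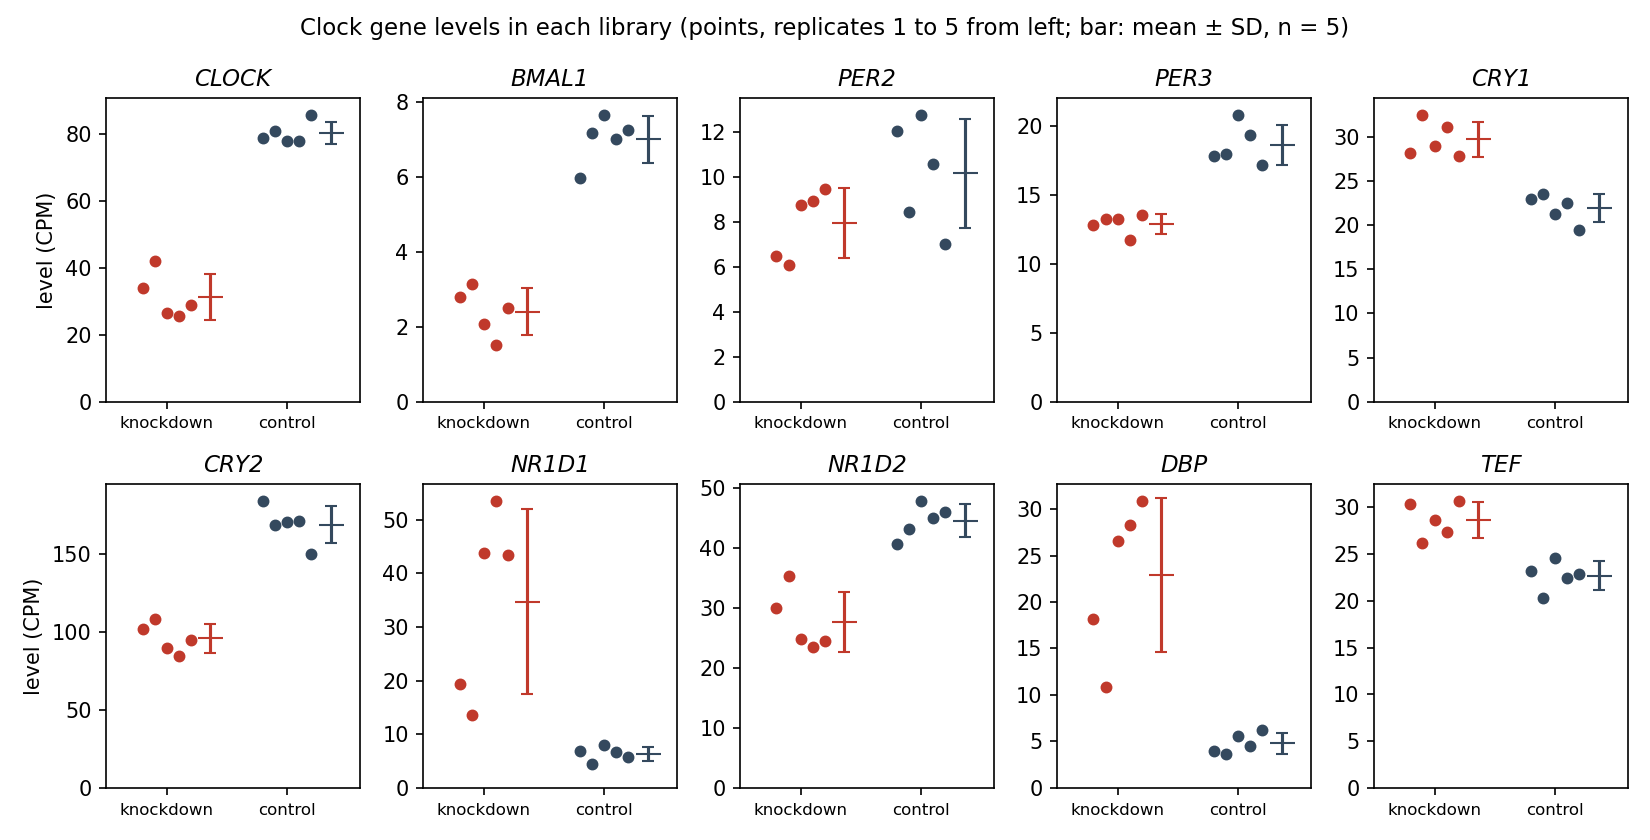
Level of each clock gene in CPM, on a linear axis from 0, in the 5 knockdown libraries (left, red) and the 5 control libraries (right, dark), with mean ± SD beside the points. The groups are apart in every panel but that of PER2, and in the panels of NR1D1 and DBP the knockdown libraries spread most.

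Both activators were lower in the knockdown. CLOCK (ENSG00000134852, chromosome 4, 55427903 to 55546909, minus strand, GRCh38) encodes a histone acetyltransferase of the bHLH-PAS family. It had 33.9, 42.0, 26.4, 25.5 and 28.8 CPM in the knockdown libraries, against 78.9, 81.0, 78.1, 77.8 and 85.7 CPM in the control libraries. The highest knockdown library, replicate 2, was still well below the lowest control. The log2 fold change was -1.36 ± 0.129 (SE), which was 2.56-fold lower (edgeR adjusted p = 1.2e-06). BMAL1 (ENSG00000133794, chromosome 11, 13276652 to 13387266, plus strand), its partner in the dimer, had 2.79, 3.13, 2.06, 1.51 and 2.49 CPM in the knockdown, against 5.96, 7.16, 7.64, 7.003 and 7.23 CPM in the control. All knockdown libraries lay below all controls, with knockdown replicate 2 again the highest and replicate 4 the lowest. BMAL1 was 2.90-fold lower (log2 fold change -1.54 ± 0.177 SE, edgeR adjusted p = 5.7e-06). It rested on 479 counts over the knockdown libraries, the fewest of the members, and 1343 over the control libraries. Its promoter is the one with the ROREs printed above, and binding was not measured.

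The PER and CRY repressors did not move as one. PER proteins carry the inhibitory complex, and CRY proteins bind CLOCK and BMAL1 directly. PER2 (ENSG00000132326, chromosome 2, 238244044 to 238290102, minus strand) had 6.48, 6.08, 8.78, 8.94 and 9.48 CPM in the knockdown, against 12.05, 8.43, 12.8, 10.6 and 7.03 CPM in the control. The groups overlapped, and the controls themselves spread 1.82-fold. The log2 fold change of -0.36 ± 0.184 (SE) did not pass (edgeR adjusted p = 0.0914). It passed when control replicate 5, the lowest control, was left out (-0.49, edgeR adjusted p = 0.0205). Without knockdown replicates 1 and 2, its lowest knockdown libraries, it shrank to -0.17 (edgeR adjusted p = 0.3545). With upper-quartile scaling it was -0.15 (edgeR adjusted p = 0.47).

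PER3 (ENSG00000049246, chromosome 1, 7784291 to 7845177, plus strand) had 12.8, 13.2, 13.2, 11.7 and 13.5 CPM in the knockdown, against 17.8, 18.0, 20.8, 19.3 and 17.1 CPM in the control. Knockdown libraries spread only 1.16-fold, and all lay below the controls. PER3 was 1.44-fold lower (log2 fold change -0.53 ± 0.0859 SE, edgeR adjusted p = 0.0001).

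CRY1 (ENSG00000008405, chromosome 12, 106991364 to 107093549, minus strand) had 28.2, 32.5, 29.0, 31.1 and 27.9 CPM in the knockdown, against 23.0, 23.5, 21.3, 22.6 and 19.5 CPM in the control. It was the only one of the PER and CRY members with a rise, 1.35-fold (log2 fold change 0.44 ± 0.0838 SE, edgeR adjusted p = 0.00038). CRY2 (ENSG00000121671, chromosome 11, 45847118 to 45883248, plus strand) had 101.8, 108.3, 90.1, 85.0 and 94.8 CPM in the knockdown, against 184, 169, 171, 172 and 150.3 CPM in the control. CRY2 was thus 1.76-fold lower, with no overlap (log2 fold change -0.82 ± 0.0913 SE, edgeR adjusted p = 4.3e-06).

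The REV-ERB genes moved in opposite directions. NR1D1 (ENSG00000126368, chromosome 17, 40092793 to 40100589, minus strand), which encodes REV-ERB alpha, a heme-binding repressor, had 19.4, 13.6, 43.8, 53.4 and 43.5 CPM in the knockdown, against 6.82, 4.44, 7.97, 6.68 and 5.74 CPM in the control. Every knockdown library was above every control, but knockdown libraries differed 3.94-fold among themselves, replicates 2 and 1 being the lowest. It was the largest rise of the members, 5.48-fold, with a log2 fold change of 2.46 ± 0.344 (SE, edgeR adjusted p = 3.0e-05), and 2.88 without knockdown replicates 1 and 2. NR1D2 (ENSG00000174738, chromosome 3, 23945286 to 23980617, plus strand), which encodes REV-ERB beta, had 29.9, 35.3, 24.8, 23.5 and 24.5 CPM in the knockdown, against 40.6, 43.2, 47.7, 44.98 and 46.0 CPM in the control. It was 1.61-fold lower, without overlap (log2 fold change -0.69 ± 0.116 SE, edgeR adjusted p = 0.00014). Replicate 2, lowest of the knockdown libraries for NR1D1, was the highest for NR1D2.

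Both PAR bZIP genes were higher, by very different amounts. DBP (ENSG00000105516, chromosome 19, 48630030 to 48637379, minus strand), a D-box activator of output genes, had 18.1, 10.8, 26.6, 28.3 and 30.8 CPM in the knockdown, against 3.97, 3.67, 5.58, 4.47 and 6.27 CPM in the control. The groups did not overlap, and knockdown replicates 2 and 1 were again closest to the controls. DBP rose 4.78-fold, with a log2 fold change of 2.26 ± 0.268 (SE, edgeR adjusted p = 7.6e-06), and 2.57 without knockdown replicates 1 and 2. TEF (ENSG00000167074, chromosome 22, 41367333 to 41399326, plus strand) had 30.3, 26.2, 28.7, 27.4 and 30.6 CPM in the knockdown, against 23.2, 20.3, 24.6, 22.4 and 22.8 CPM in the control. The lowest knockdown library was above the highest control by a small margin, and TEF was 1.26-fold higher (log2 fold change 0.34 ± 0.0825 SE, edgeR adjusted p = 0.0023).

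The exons of some members overlap those of genes on the other strand, and the strand setting of the counting is not given. NR1D1 shares 473 exon bases, 18.0% of its own, with the thyroid hormone receptor gene THRA, which averaged 90.3 CPM in the knockdown and 73.9 CPM in the control (log2 fold change 0.29 ± 0.0775 SE). DBP shares 661 bases, 10.2% of its exons, with the sphingosine kinase gene SPHK2, which had 7.71 CPM in the knockdown and 8.79 CPM in the control (log2 fold change -0.19, edgeR adjusted p = 0.0943). TMEM165 shares 76 exon bases with CLOCK and had a log2 fold change of -0.18 that did not pass (edgeR adjusted p = 0.061). UTS2, which shares 868 exon bases with PER3, did not pass the filter on low counts. NKIRAS1 overlaps NR1D2 in span but not in exons.

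**Figure D2:**
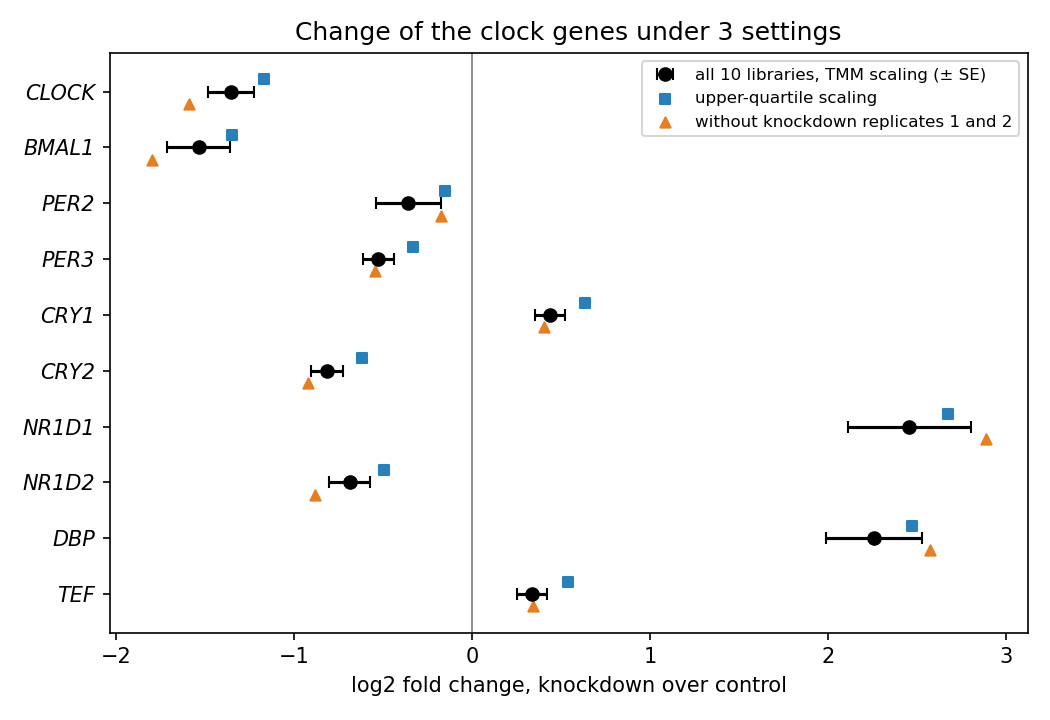
Log2 fold change of each clock gene, knockdown over control, with all libraries and TMM scaling (circles, ± SE), with upper-quartile scaling (squares) and without knockdown replicates 1 and 2 (triangles). The sign of each of the 10 genes is the same under the 3 settings, and NR1D1 and DBP lie farthest to the right.

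The balance within partners and relatives was tested as the difference of their log2 CPM in each library, a quantity that library scaling hardly touches, with an exact two-sided permutation test over all labelings and adjustment over 5 pairs. NR1D2 minus NR1D1 averaged -0.17 ± 1.11 in knockdown and 2.84 ± 0.303 in control libraries (SD, n = 5, exact permutation adjusted p = 0.0132). The knockdown libraries ran from -1.18 to 1.38 and the control libraries from 2.57 to 3.28, without overlap. These differences are not divided by gene length, so they compare libraries and do not say which gene of a pair was the more abundant. TEF minus DBP averaged 0.41 ± 0.577 in knockdown and 2.27 ± 0.273 in control libraries (SD, n = 5, exact permutation adjusted p = 0.0132). CRY2 minus CRY1 averaged 1.69 ± 0.153 in knockdown and 2.94 ± 0.0656 in control libraries (SD, n = 5, exact permutation adjusted p = 0.0132). The raw p of these 3 pairs was 0.00794, the smallest that such a test can give here. How often pairs of other genes reach it was not determined. Of all single genes tested, 67.5% had knockdown and control libraries without overlap, so these results are not shown to be particular to clock genes.

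The other pairs did not pass. BMAL1 minus CLOCK averaged -3.72 ± 0.207 in knockdown and -3.52 ± 0.136 in control libraries (SD, n = 5, exact permutation p = 0.0952, adjusted p = 0.119), a difference of -0.20. Without control replicate 1 it was -0.25 (exact permutation adjusted p = 0.0496). PER3 minus PER2 averaged 0.72 ± 0.314 in knockdown and 0.90 ± 0.291 in control libraries (SD, n = 5, exact permutation adjusted p = 0.349).

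**Figure D3:**
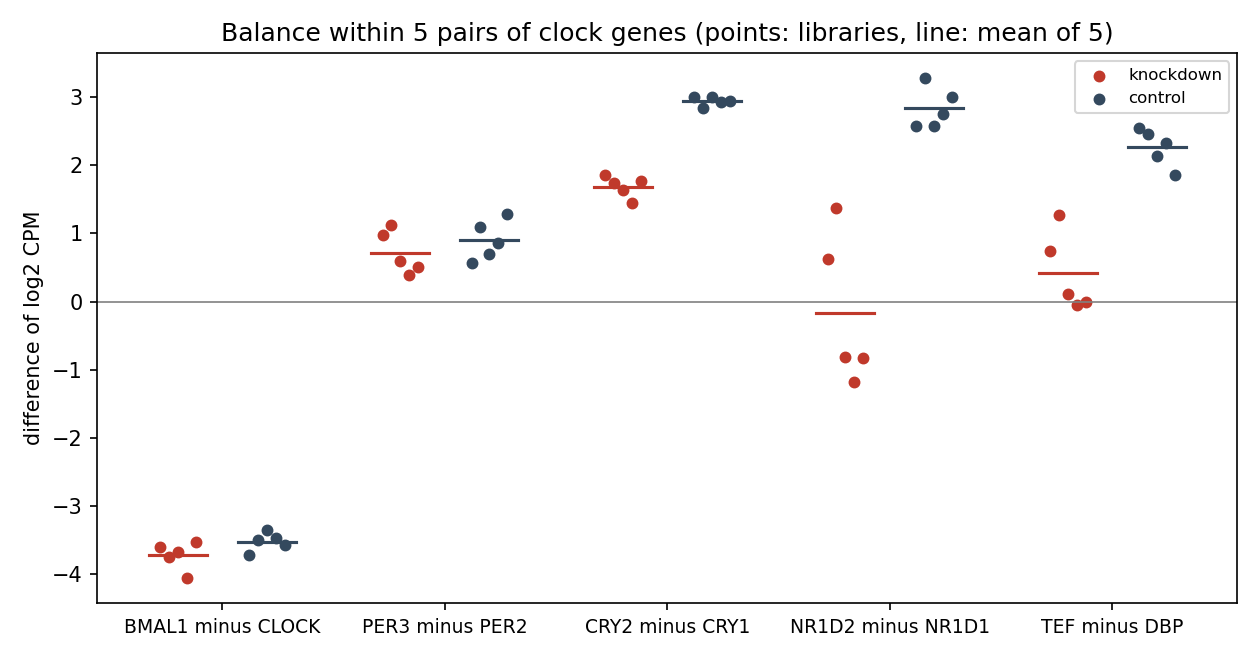
Difference of log2 CPM between the 2 genes of each pair, 1 point for a library and a line at the mean of 5, knockdown (red) left of control (dark). The groups are apart for CRY2 minus CRY1, NR1D2 minus NR1D1 and TEF minus DBP, and they overlap for BMAL1 minus CLOCK and PER3 minus PER2.

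To set levels of different genes side by side, CPM were divided by the length of each gene's merged exons. CRY2 ranked first in both groups, with 15.5 ± 1.49 CPM per kb in knockdown and 27.3 ± 1.95 CPM per kb in control libraries (SD, n = 5). NR1D1 stood second in the knockdown at 13.2 ± 6.55 CPM per kb and sixth in the control at 2.41 ± 0.502 CPM per kb (SD, n = 5). Its knockdown libraries overlapped those of CRY2 and of CRY1, the third at 6.22 ± 0.414 CPM per kb. On this scale NR1D1 was above NR1D2 in 4 of 5 knockdown libraries, all but replicate 2, and below it in all 5 control libraries. In the control NR1D2 (7.68 ± 0.472 CPM per kb) and CLOCK (6.96 ± 0.282 CPM per kb) followed CRY2 and overlapped each other, as did TEF and CRY1, NR1D1 and PER3, PER2 and BMAL1, and BMAL1 and DBP. In the knockdown the order after CRY1 was TEF, NR1D2, DBP and CLOCK, each overlapping the next, and then PER3, PER2 and BMAL1, each separate from the next. BMAL1 came last in the knockdown with 0.345 ± 0.0907 CPM per kb, against 1.01 ± 0.0903 CPM per kb in the control (SD, n = 5). DBP was last in the control with 0.739 ± 0.169 CPM per kb, against 3.53 ± 1.28 CPM per kb in the knockdown (SD, n = 5). The merged exons of DBP fill 6.49 kb of a span of 7.35 kb, which lowers its value on this scale. CLOCK exceeded BMAL1 per kb 7.86-fold in the knockdown and 6.90-fold in the control, and CRY2 exceeded CRY1 2.49-fold in the knockdown and 5.94-fold in the control.

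**Figure D4:**
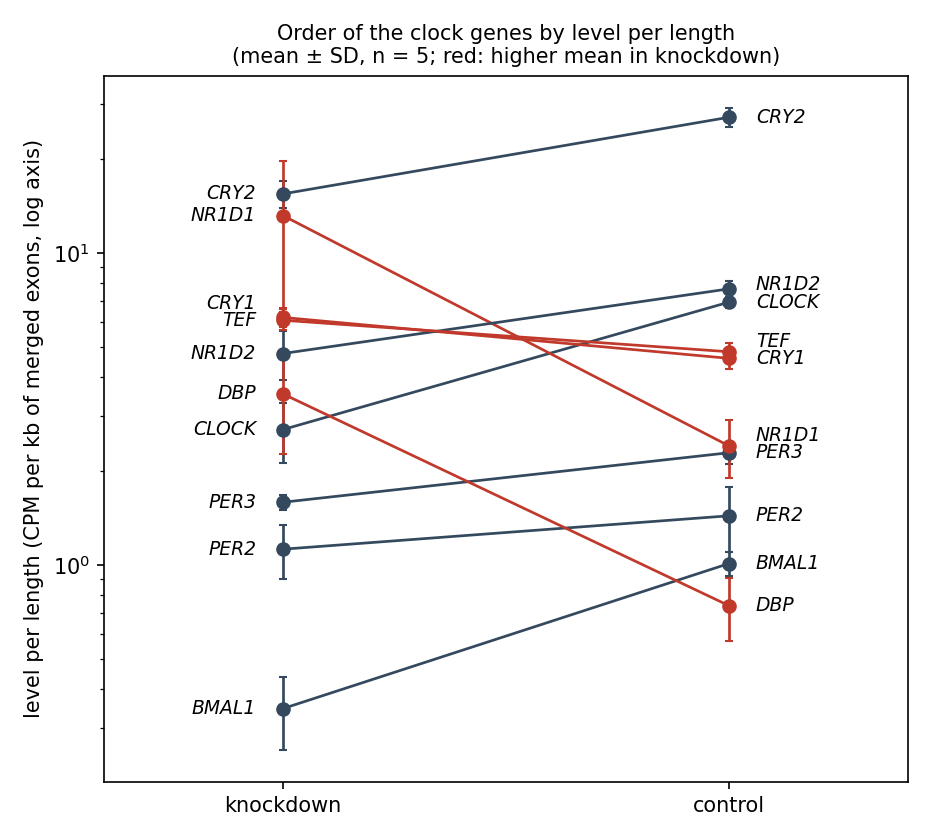
Mean level per length of the clock genes (CPM per kb of merged exons, log axis, ± SD, n = 5) in knockdown (left) and control libraries (right), with red lines for genes with the higher mean in the knockdown. NR1D1 is second on the left and sixth on the right, and BMAL1 is last on the left.

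Across coding genes the fold change moved with the length of genome that a gene covers, introns included, here called its span. NR1D1 and DBP span 7.80 and 7.35 kb. Among 2796 tested coding genes of up to 10 kb, 66.5% passed as higher in the knockdown and 13.6% as lower. The median log2 fold change there was 0.77, against which NR1D1 had 2.46 and DBP 2.26. CLOCK spans 119 kb and BMAL1 111 kb. None of the members spans 10 to 30 kb, a class with 48.9% higher and 29.1% lower. Of the 3130 coding genes over 100 kb, 85.1% were lower, with a median of -1.45, close to the -1.36 of CLOCK and the -1.54 of BMAL1. CRY1, at 102 kb, was higher in a class of which 5.65% was higher. CLOCK, BMAL1 and CRY1 all lie near the lower bound of this class, which has no upper bound. The other members, at 32.0 to 60.9 kb, fell in the class of 30 to 100 kb, of which 57.0% was lower and 23.2% higher, with a median of -0.48. There TEF had 0.34, PER2 -0.36, PER3 -0.53, NR1D2 -0.69 and CRY2 -0.82. The part of gene span in the changes of the clock genes was not tested.

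**Figure D5:**
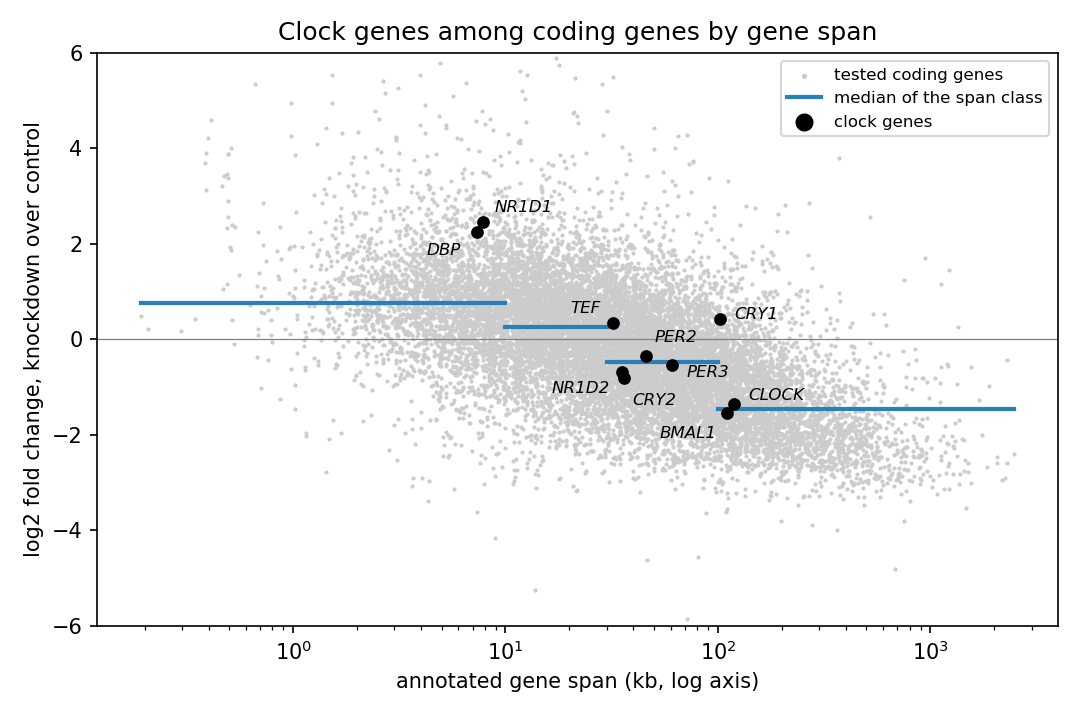
Log2 fold change, knockdown over control, against annotated gene span (log axis) for tested coding genes (grey), with the median of each of 4 span classes (blue lines) and the clock genes (black). NR1D1 and DBP lie above the median of their class and CLOCK and BMAL1 close to theirs. CRY1, near the lower bound of its class, lies far above the median of that class, and 10 coding genes lie outside the plotted range.

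Other genes of the core loop were called no more often than all genes. Of 11 listed genes 9 were tested, 4 of which were higher and 2 lower, where 79.7% of all genes passed, 40.1% as higher and 39.6% as lower. Not all of those that passed are named here. Their median log2 fold change was -0.09. NPAS2 and BMAL2, called lower, span 177 and 92.5 kb, and CIART, BHLHE41 and NFIL3, called higher, span 4.55, 5.01 and 14.8 kb. Of coding genes of up to 10 kb 66.5% were higher, and of those over 100 kb 85.1% were lower. In the class of NFIL3, 10 to 30 kb, 48.9% were higher and 29.1% lower. In that of BMAL2, 30 to 100 kb, 23.2% were higher and 57.0% lower. The part of span in these changes was not tested. NPAS2, which can replace CLOCK, was lower with 1.058, 3.13, 0.725, 0.454 and 0.945 CPM in the knockdown, against 6.85, 7.02, 4.36, 6.17 and 5.43 CPM in the control. Its log2 fold change was -2.20 ± 0.404 (SE), and -2.90 without knockdown replicate 2, its highest knockdown library. BMAL2, the paralog of BMAL1, was 3.45-fold lower, with 1.59 ± 0.635 CPM in the knockdown and 5.54 ± 0.862 CPM in the control (SD, n = 5). CIART, a repressor of the CLOCK and BMAL1 dimer, had 25.98, 19.1, 58.9, 64.1 and 61.9 CPM in the knockdown, against 6.88, 4.51, 7.34, 4.44 and 4.09 CPM in the control. It was 8.44-fold higher, with a log2 fold change of 3.08 ± 0.351 (SE, edgeR adjusted p = 5.3e-06), and its knockdown replicates 2 and 1 were the lowest, as for NR1D1 and DBP. NFIL3, which represses at D-boxes, was 2.05-fold higher, with 29.8 ± 5.17 CPM in the knockdown and 14.5 ± 0.973 CPM in the control (SD, n = 5). BHLHE41, an E-box repressor, was 2.38-fold higher with overlapping groups (edgeR adjusted p = 0.0157), a call lost with limma-voom. BHLHE40 (log2 fold change -0.09, and 0.11 with upper-quartile scaling), RORA (-0.23) and RORB (-0.48) did not pass. RORA passed without knockdown replicate 2 (-0.34) and RORB without knockdown replicate 3 (-0.65). The PAR bZIP gene HLF had 10 counts in all knockdown and 25 in all control libraries, too few to be tested.

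Genes that modify clock proteins or act with them changed in both directions. All 14 listed were tested, of which 5 were higher and 8 lower, where 40.1% of all genes were higher and 39.6% lower. The median log2 fold change was -0.26. GSK3B, BTRC, NCOR1 and FBXW11, called lower, span 274, 203, 189 and 145 kb. USP7, CSNK1D, GSK3A and HDAC3, also lower, span 83.2, 34.7, 16.4 and 16.0 kb. SFPQ, CIPC, TIMELESS and NONO, called higher, span 17.1, 19.2, 33.1 and 46.7 kb. Of all coding genes over 100 kb, 85.1% were lower. Of those of 30 to 100 kb, 23.2% were higher and 57.0% lower, and of those of 10 to 30 kb, 48.9% were higher and 29.1% lower. The part of span in these changes was not tested. The ubiquitin ligase adaptors that mark PER proteins for degradation were lower. BTRC had 10.8 ± 4.94 CPM in the knockdown and 73.8 ± 4.90 CPM in the control (SD, n = 5, 6.78-fold lower, edgeR adjusted p = 7.3e-07), and FBXW11 was 1.79-fold lower. USP7, a deubiquitylase that stabilises CRY1, was 3.54-fold lower. The corepressor genes through which REV-ERB receptors act were lower too, HDAC3 with 16.5 ± 0.826 CPM in the knockdown and 38.5 ± 2.00 CPM in the control (SD, n = 5, 2.34-fold, edgeR adjusted p = 6.3e-08) and NCOR1 2.33-fold. CIPC, an inhibitor of CLOCK, was 2.15-fold higher, with 112 ± 2.95 CPM in the knockdown and 52.4 ± 5.50 CPM in the control (SD, n = 5). The PER partner SFPQ was 2.59-fold and TIMELESS 1.405-fold higher. Among the kinases GSK3B was 1.55-fold lower, GSK3A and CSNK1D had log2 fold changes of -0.27 and -0.25 that did not pass with upper-quartile scaling (-0.07 and -0.06), and CSNK1E did not pass (0.06) except with upper-quartile scaling (0.25). The call of NONO (0.25, edgeR adjusted p = 0.0227) was lost with no filter beyond 1 count (0.21), and also without knockdown replicate 5 (0.24) and without control replicate 1 (0.23), 2 (0.21), 4 (0.21) or 5 (0.23).

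Of 8 genes listed as clock outputs 2 were higher and 1 lower, a smaller share than the 79.7% of all genes that passed. The median log2 fold change was 0.19. KLF15, called lower, spans 14.8 kb, and KLF9 and TSC22D3, called higher, span 30.1 and 64.1 kb. KLF15, a regulator of cardiac metabolism, had 1.17, 2.28, 0.725, 0.394 and 1.01 CPM in the knockdown, against 4.69, 5.92, 4.53, 4.44 and 5.58 CPM in the control, a 4.42-fold difference. KLF9 was 1.57-fold higher, with 11.3 ± 0.983 CPM in the knockdown and 7.21 ± 0.780 CPM in the control (SD, n = 5). TSC22D3, a glucocorticoid-induced gene, was 2.13-fold higher with overlap, at 156 to 441 CPM in the knockdown and 130.2 to 158 CPM in the control, knockdown replicate 2 being the lowest. WEE1 (log2 fold change 0.30), KLF10 (0.31), NOCT (0.09), USP2 (0.05) and NAMPT (-0.19) did not pass. WEE1 passed under 8 of 20 alternatives, at 0.30 to 0.50, among them DESeq2 (0.32), a filter at a mean of 1 CPM (0.35) and leaving out knockdown replicate 1 (0.37) or 2 (0.35). With upper-quartile scaling WEE1 (0.50), KLF10 (0.51) and USP2 (0.25) passed. NAMPT passed without control replicate 2 (-0.26) or 5 (-0.27).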

How the data were processed

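Total RNA of 5 knockdown and 5 control samples was analysed, grouped and numbered by their titles. The authors deposited raw read counts per gene. Per the labels, a stranded total RNA kit was used. Trim Galore 0.65, STAR 2.7.0, HTSeq and GRCh38 are named in the submitters' processing notes, and GENCODE 38 in the series' design text. The version and strand setting of HTSeq are not stated in these sources.

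Symbols, positions, spans and exon lengths came from GENCODE 44 (61481 of 78932 identifiers matched). Counts were scaled by TMM, filtered with filterByExpr and tested with edgeR 4.0.16 (quasi-likelihood, robust, R 4.3.3), with Benjamini-Hochberg adjustment over 21033 genes. SE is the log2 fold change over the square root of F. CPM use TMM-scaled library sizes. TMM makes each fold change relative to most genes. Log2 CPM of pairs had a prior count of 0.5. Counts cover counting error only. No label says that replicates were separate cultures, so p-values set the group difference against the spread between these samples, which may be technical. Within each group, all pairs of libraries differed by more than sampling noise (chi-square over its degrees of freedom was 4.47 or more).

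Members and lists were chosen with earlier results of these data known. Named were the members, list genes, genes overlapping members and the coding gene most like each member. Some genes of the lists are not reported here. The alternatives were DESeq2 1.42.0 (size factors and test), limma-voom 3.58.1, upper-quartile scaling, other filters, no robust dispersion, no mitochondrial genome genes, a replicate block and leaving out libraries. Tested on simulated data for knockdown against control over 20656 genes, recovery was 26.9% for 67 genes at 1.5-fold, 86.6% for 67 genes at 2-fold and 98.5% for 66 genes at 4-fold. Of 150 calls, 9 were false. The simulation changed only these genes and left all others equal, whereas 79.7% of genes passed in the data. Its rates therefore do not describe the fit to these data. Figures used matplotlib 3.10.9.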

Additional observations from a re-analysis of the deposited data

How the results depend on the processing

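Across 20 alternatives for each of the 10 clock genes, 199 of 200 values kept their direction and their side of the threshold, the exception being PER2. Leaving out 1 library at a time gave log2 fold changes of -0.49 to -0.28 for PER2 (past the threshold without control replicate 5) and -0.25 to -0.11 for BMAL1 minus CLOCK (past it without control replicate 1). CRY2 minus CRY1, NR1D2 minus NR1D1 and TEF minus DBP passed under each of their 12 alternatives, and NR1D2 minus NR1D1 was -3.78, against -3.00, without knockdown replicates 1 and 2. Without these 2 libraries NPAS2 was at -3.09 and KLF15 at -2.84. Upper-quartile scaling shifted the median of all genes by 0.20 and called 5 output genes higher, as against 2. It turned BHLHE40 to 0.11 and NAMPT to 0.012. Output genes called lower numbered 1 to 2 when single libraries were left out. Some values that did not pass changed sign, CSNK1E to -0.020 and NOCT to -0.024 without knockdown replicates 1 and 2. Without control replicate 5 NOCT and USP2 were below 0, and over single libraries left out they ran from -0.021 to 0.17 and from -0.044 to 0.076. The cause of these changes was not tested. Whether the replicate numbers pair the samples cannot be told from these values. Same-numbered libraries had correlations of -0.47 to 0.36 of their deviations, and 2 of 5 knockdown libraries correlated best with their own number. With the replicate block 16425 genes were called, as against 16773, with 9 clock genes among them, and BHLHE41 (1.10) and NONO (0.25) lost their calls. The pair differences were not run with a block or other scaling, since a sign-flip test of 5 pairs cannot pass and scaling cancels. BMAL1, with 50 counts in its lowest library, was the member most limited by depth.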

Other observations

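For each clock gene, the coding gene with a mean of at least 5 CPM whose log2 CPM was most alike over the 10 libraries was listed, as a description of points that fall into the same 2 groups of libraries. The highest Pearson r was 0.9996, between CLOCK and WDTC1 (log2 fold change -1.77), and the lowest 0.929, between PER2 and OTUD4 (-0.13). BMAL1 was most like SLC26A11 (r = 0.996), NR1D1 most like ACAA2 (r = 0.998), a mitochondrial thiolase gene with a smaller log2 fold change of 0.89, and DBP most like SPOUT1 (r = 0.995, log2 fold change 0.94). PER3 was most like RAD52 (r = 0.983), CRY1 like LRRC14B (r = 0.982), CRY2 like LAMA4 (r = 0.996), NR1D2 like SENP7 (r = 0.996) and TEF like MARK2 (r = 0.979).

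Knockdown replicate 2 was the knockdown library nearest to the controls for 7 of the 10 clock genes, and replicate 5 for the other 3, PER2, PER3 and CRY1. The same shares over all genes were not computed. Without knockdown replicate 2, 17650 of all genes were called, as against 16773 with all libraries, so its weight was not limited to clock genes.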
